A study of Mus musculus with 2 samples.

Results

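Imprinted genes are expressed from only the maternal or only the paternal chromosome, and several of them set the growth of the embryo and placenta. Binding of Brg1 around 6 such genes was described in primary mouse embryonic fibroblasts: H19, Igf2, Cdkn1c, Dlk1, Meg3 and Igf2r. The genes were taken through 4 intervals of the mm9 genome build fixed by position: H19 with Igf2 on chromosome 7 at 149740000 to 149870000, Cdkn1c on chromosome 7 at 150624000 to 150667000, Dlk1 with Meg3 on chromosome 12 at 110670000 to 110830000, and Igf2r on chromosome 17 at 12855000 to 12983000. No measured value entered the bounds of the intervals, but the intervals were chosen with earlier results of these data known. Together they spanned 461 of the 2641863 windows of 1 kb into which the genome was divided. The study has 2 libraries, both from wild-type embryos of mixed C57BL/6 and 129 background taken at E13.5. In 1 library chromatin was precipitated with an antibody against Brg1, the ATPase subunit of the nucleosome-remodelling complex Swi/Snf; in the other, the input, no antibody was used. Nuclei were digested with micrococcal nuclease, which cuts the linkers between nucleosomes, and sonicated briefly before precipitation. As no group has a second library, no replicate check was possible, and every comparison below is between the tags of these 2 libraries, and every interval covers counting error only. The files hold no RNA, so the labelled cell type was not checked against marker genes, and they do not separate the maternal from the paternal chromosome.

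Igf2 is a secreted growth factor made from the paternal copy, and its neighbour H19 is a noncoding RNA made from the maternal copy. A control region between them carries methylation on the paternal chromosome and binds the insulator protein CTCF on the maternal one. Igf2r, the receptor that takes Igf2 into the cell for breakdown, is made from the maternal copy in the mouse and overlaps Airn, a noncoding RNA read in the opposite direction from the paternal copy. Cdkn1c encodes p57, an inhibitor of cyclin-dependent kinases, and is made from the maternal copy. Dlk1, a membrane protein related to the Notch ligands, is made from the paternal copy, and the noncoding RNA Meg3 from the maternal copy of the same domain. H19 and Dlk1 are active in many embryonic tissues and become silent in most of them after birth.

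The starts of these genes differ in sequence, among other things in CpG dinucleotides, the sites at which imprinting is marked by DNA methylation. RefSeq promoters on the GRCm38.p6 build, 250 bases before to 50 after a start, were matched for 4 of the 6 members, with 8 starts in all. The sequence at the Igf2r start held 34 CpG dinucleotides in 300 bases, a count reached by 7.73% of the 32841 promoters in that table, whose median was 7. At the 4 starts of Igf2 the counts were 2, 14, 24 and 7, so the alternative promoters of 1 gene covered a wide range. Dlk1 had 9, and the 2 starts of Meg3 had 13 and 1. The first start of Meg3 also held the cyclic AMP response motif TGACGTCA, which reads alike on both strands and is found in 1.79% of the promoters, and a TATAAA motif, found on either strand in 13.6%. Neither motif was found at the other 7 starts. The Igf2r start, the Igf2 start with the most CpG and the first Meg3 start are shown 5′ to 3′ to let these contrasts be seen, with each CG in capitals; Igf2r and Igf2 lie on the minus strand and Meg3 on the plus strand.
Igf2r: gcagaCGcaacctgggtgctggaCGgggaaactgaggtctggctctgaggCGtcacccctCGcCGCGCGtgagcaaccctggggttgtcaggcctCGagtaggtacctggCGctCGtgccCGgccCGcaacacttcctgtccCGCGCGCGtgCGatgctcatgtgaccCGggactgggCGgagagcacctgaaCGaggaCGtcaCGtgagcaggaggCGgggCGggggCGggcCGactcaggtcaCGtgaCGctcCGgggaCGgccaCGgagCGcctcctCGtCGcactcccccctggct
Igf2: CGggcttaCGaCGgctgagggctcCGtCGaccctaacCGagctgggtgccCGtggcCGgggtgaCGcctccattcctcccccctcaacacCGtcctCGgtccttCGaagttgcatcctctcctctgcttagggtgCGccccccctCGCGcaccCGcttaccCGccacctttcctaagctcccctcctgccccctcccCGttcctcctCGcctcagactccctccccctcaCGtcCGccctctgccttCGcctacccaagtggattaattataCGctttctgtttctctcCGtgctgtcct
Meg3: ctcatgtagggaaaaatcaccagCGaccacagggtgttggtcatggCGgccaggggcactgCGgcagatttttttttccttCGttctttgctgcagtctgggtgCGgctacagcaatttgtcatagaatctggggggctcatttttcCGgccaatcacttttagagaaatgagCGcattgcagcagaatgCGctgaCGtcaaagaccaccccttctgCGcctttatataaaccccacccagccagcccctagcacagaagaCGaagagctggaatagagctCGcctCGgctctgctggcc
These sequences come from another build than the tags and coordinates were not converted, so no tag count is given for a promoter, and the windows below are named by their mm9 position and not by the gene part they cover. In the gene table of that build, the 3 genes listed next to each member on either side include Nctc1 before H19, Ins2 after Igf2, Kcnq1ot1 before and Phlda2 after Cdkn1c, Begain before Dlk1, Rtl1 after Meg3, and Airn after Igf2r.

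Of the 4 intervals, Igf2r had the highest level of Brg1 relative to input, and the others were close to the genome's average. At Igf2r 1411 tags of the ChIP and 465 of the input were counted. The libraries were scaled by their totals on the autosomes, 2.36 tags of the ChIP for each tag of the input, which made the ChIP/input ratio 1.29 (exact Clopper-Pearson 95% interval 1.16 to 1.43). The H19 with Igf2 interval held 900 and 411 tags, a ratio of 0.929 (0.826 to 1.05). Cdkn1c, in an interval of only 43 kb, had 343 and 147, a ratio of 0.990 (0.814 to 1.21). Dlk1 with Meg3 had 1080 and 476, a ratio of 0.963 (0.864 to 1.07). The 95% intervals of the last 3 ratios include 1, and all 3 lay above 1, at 1.03, 1.10 and 1.07, when the scale was set by the median 10 kb window; Igf2r was then at 1.43.

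Pairwise comparison of the 4 intervals, in which the scale cancels, separated Igf2r from the rest. The ratio of H19 with Igf2 was 0.722 times that of Igf2r (exact conditional 95% interval 0.615 to 0.847). For Dlk1 with Meg3 the factor was 0.748 (0.641 to 0.872), and for Cdkn1c it was 0.769 (0.614 to 0.965). Among the other 3 intervals no pair differed beyond counting error. H19 with Igf2 stood at 0.938 times Cdkn1c (0.743 to 1.18) and at 0.965 times Dlk1 with Meg3 (0.821 to 1.14), and Cdkn1c at 1.03 times Dlk1 with Meg3 (0.820 to 1.29). These bounds still allow differences of about the size seen for Igf2r between Cdkn1c and the others.

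Beside the whole genome, the level at Igf2r was high but not rare. The autosomes were divided into 18612 stretches of the same 128 kb with at least 50 tags each. Of these, 9.36% had a ratio as high as that of Igf2r or higher, and their 5th to 95th percentile ran from 0.671 to 1.39 around a median of 0.927. Among stretches of their own widths, 49.5% reached the ratio of H19 with Igf2, 38.3% that of Cdkn1c and 44.6% that of Dlk1 with Meg3. Tag density was above the autosomal mean in all 4 intervals and in both libraries. In the ChIP library it was 2.01 times the mean at Igf2r, 1.46 at Cdkn1c, 1.27 at H19 with Igf2 and 1.23 at Dlk1 with Meg3. The input stood at 1.56, 1.47, 1.36 and 1.28 times its mean in the same order, so the input was also dense at Igf2r. Only 2.65% of the 128 kb stretches had as many ChIP tags as Igf2r, and 0.833% as many input tags. The part that tag density has in the ratio was not tested.

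**Figure D1:**
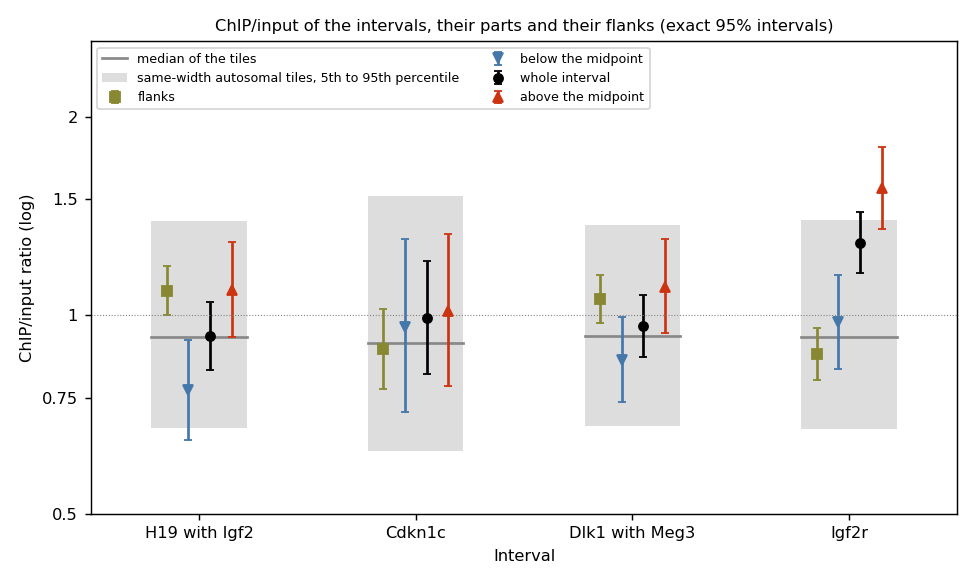
ChIP/input ratio (log axis) of each interval (black circles), of its part below and above the midpoint (blue and red triangles) and of its flanks (green squares), with exact 95% intervals. Grey bars run from the 5th to the 95th percentile of autosomal stretches of the same width, with the median as a line; the part of Igf2r above its midpoint, at 1.56, is the highest value.

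Within the Igf2r interval Brg1 tags were denser, relative to input, at higher coordinates. Below the midpoint 494 ChIP tags and 215 input tags gave 0.975 (0.829 to 1.15), and above it 917 and 250 gave 1.56 (1.35 to 1.80). The upper part was therefore at 1.60 times the lower (exact conditional interval 1.28 to 1.99). The 2 parts of the H19 with Igf2 interval stood at 0.769 (0.648 to 0.915) and 1.09 (0.928 to 1.29), a factor of 1.42 (1.12 to 1.81). For Dlk1 with Meg3 they were at 0.855 (0.738 to 0.993) and 1.10 (0.939 to 1.30), a factor of 1.29 (1.03 to 1.61). In the Cdkn1c interval the parts were at 0.960 and 1.01 and did not differ beyond counting error (factor 1.06, 0.702 to 1.59). The split at the midpoint was chosen after the windows had been seen.

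To place the signal more finely, tags were compared in windows of 10 kb by a two-sided exact binomial test with Benjamini-Hochberg adjustment over all 249877 tested windows of the genome. Calls needed an adjusted p below 0.05 together with a ratio no smaller than 1.5 (higher) or no larger than the inverse of 1.5 (lower). In the genome 3.98% of tested windows were called higher and 1.11% lower. Of the 44 windows inside the 4 intervals 3 were called higher and 0 lower, and 3 of 44 is a small count to set beside that background. Without adjustment, 4 were higher and 4 lower at p under 0.05, which is near the background of 8.27% and 8.62% of all tested windows. Of the called windows 2 lay in the Igf2r interval and 1 in that of H19 with Igf2. By ratio alone, 4 of the 44 windows reached 1.5, against 11.1% of all tested windows, and 4 were at or under its inverse, against 19.9%. Their median was 1.01, against 0.898 over all tested windows, and 23 of 44 lay above 1, against 38.8% in the genome.

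In the Igf2r interval the 12 windows of 10 kb ran from 0.684 to 2.32, with a median of 1.20, and 8 of them lay above 1. Highest by its lower bound was the window from 12940000 to 12949999, where 223 ChIP tags met 41 input tags (ratio 2.31, 1.65 to 3.30; exact binomial test, adjusted p = 1.72e-05). Its ChIP density was 4.08 times the autosomal mean and its input density 1.77 times. The second called window, from 12970000 to 12979999, had 164 against 30 (ratio 2.32, 1.56 to 3.55; exact binomial test, adjusted p = 0.000436). Between them the window at 12950000 was at 1.52 (1.03 to 2.27) with 125 and 35 tags, and that at 12960000 fell back to 0.974 (0.677 to 1.42) with 101 and 44; neither was called. Below 12900000 the ratios were 0.688, 0.771, 1.15 and 0.684. The lowest upper bound belonged to the window at 12890000, with 58 ChIP and 36 input tags (0.443 to 1.07). High windows thus lay at the upper end of the interval and low ones at its lower end.

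The H19 with Igf2 interval was flat or low except for a single block. Its 13 windows had a median of 0.878, and 5 lay above 1. In the window from 149840000 to 149849999, 157 ChIP tags stood against 32 of the input (ratio 2.08, 1.42 to 3.15; exact binomial test, adjusted p = 0.00338). The windows on either side were at 0.849 and 1.04, and the 12 others ranged from 0.485 to 1.07. The lowest, at 149790000 to 149799999, had 40 ChIP and 35 input tags (0.300 to 0.786; exact binomial test, adjusted p = 0.0559), which missed the threshold. At the lower edge of the interval the window at 149740000 was similar, with 45 and 36 tags and a ratio of 0.530 (0.335 to 0.846).

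No 10 kb window was called in the Dlk1 with Meg3 or the Cdkn1c interval. Across Dlk1 with Meg3 the 16 windows ran from 0.474 to 1.49, with a median of 1.01. Values of like size often lay next to each other, an order that was not tested. The 3 windows from 110670000 to 110699999 were at 1.01, 1.49 and 1.07. The next 5 were at 0.834, 0.684, 0.780, 0.474 and 0.525, and those at 110750000 and 110760000 were at 0.962 and 0.940. The last 6, from 110770000 to 110829999, were all at or above 1, at 1.00, 1.06, 1.34, 1.25, 1.24 and 1.11. The highest lower bound was at 110680000 to 110689999, with 109 ChIP and 31 input tags (0.993 to 2.30; exact binomial test, adjusted p = 0.309). The lowest upper bound was at 110730000 to 110739999, with 38 and 34 tags (0.291 to 0.777; exact binomial test, adjusted p = 0.0524). In the Cdkn1c interval, which holds 3 whole windows, the ratios were 0.909, 1.41 and 0.936 at 150630000, 150640000 and 150650000. The middle one held 100 ChIP and 30 input tags (0.932 to 2.20; exact binomial test, adjusted p = 0.435). With 30 input tags a 10 kb window needed 129 ChIP tags, a ratio of 1.82, to be called higher, or at most 31 to be called lower, so smaller differences were not detectable at this depth.

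Moving the 10 kb windows by 5 kb left 1 of the 3 calls. This was the window at 12945000 to 12954999 in the Igf2r interval, with 198 ChIP against 39 input tags and a ratio of 2.15 (exact binomial test, adjusted p = 0.000267). In H19 with Igf2 the moved windows at 149835000 and 149845000 were at 1.29 and 1.58 and not called (exact binomial test, adjusted p = 0.554 and 0.164). The stretch at 12970000 is divided by the moved windows, and the upper of these crosses the end of the interval and was not counted; the lower, at 12965000, was at 1.25.

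**Figure D2:**
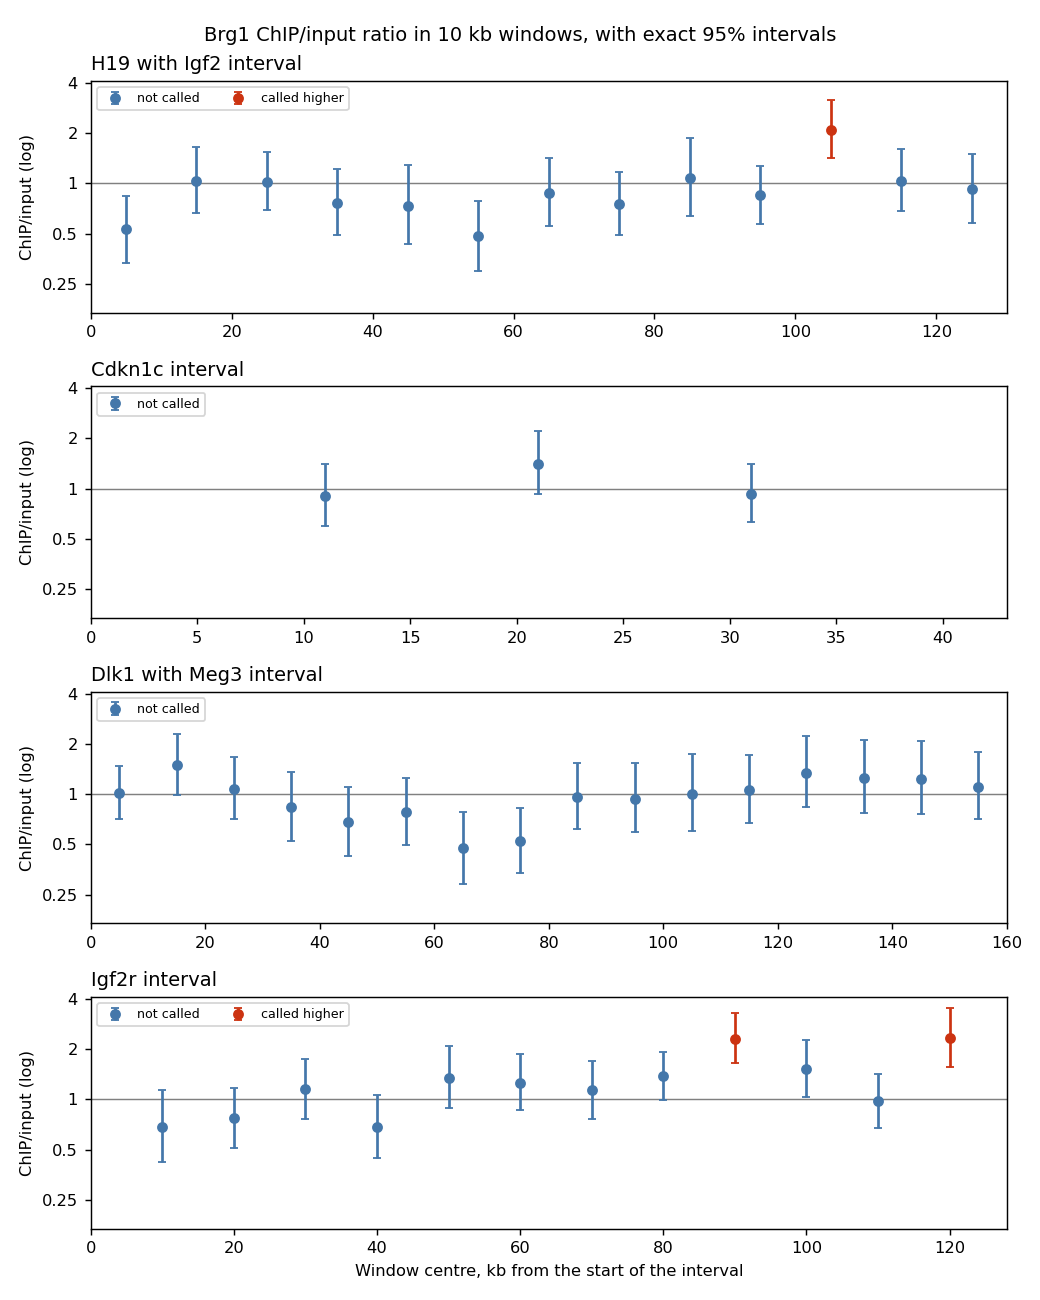
ChIP/input ratio (log axis) in each 10 kb window wholly inside an interval, against the distance of its centre from the interval's start in kb, with exact 95% intervals. Red points are windows called higher, at 2.08 in H19 with Igf2 and at 2.31 and 2.32 in Igf2r; blue points were not called.

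At 1 kb, 1 of the 255 testable windows of the 4 intervals was called higher (background 0.380% of 706215 windows) and 0 lower (0.00666%), which is near the background. Without adjustment 13 were higher and 2 lower at p under 0.05 by the exact binomial test, against 5.98% and 1.70% of all testable windows, so the members were no more often past it than the genome. Of the 13, 10 lay in the Igf2r interval, among its 94 testable windows. Summing outcome likelihoods instead of doubling a tail also gave 1 call higher and 0 lower. The called window, in the Igf2r interval at 12943000 to 12943999, held 28 ChIP tags at 28 distinct positions, 16 of them on the plus strand, and 0 input tags. Against a floor of 3 input tags put in place of the 0, this window was 3.96-fold higher. The exact lower 95% bound from the counts themselves was smaller, at 3.01 (exact binomial test, adjusted p = 0.0344). The call rested on the settings: it was lost in 4 of the alternatives that kept the window, among them unmoved tags, where an input tag fell inside it (exact binomial test, adjusted p = 0.0786). The median ratio of testable windows was 1.22 in Igf2r, 1.06 in H19 with Igf2, 1.04 in Cdkn1c and 1.13 in Dlk1 with Meg3, against 1.13 over all testable windows.

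Several neighbouring windows carried the block in the Igf2r interval. From 12942000 to 12951999 each of the 10 windows held between 14 and 33 ChIP tags and between 0 and 7 input tags. The lowest ratio among them was 1.76, in a stretch whose limits were drawn from these same counts. The most ChIP tags, 33 against 4, were at 12947000 (ratio 3.50, 1.25 to 13.6), followed by 32 against 4 at 12948000. At the upper end, 23 ChIP tags against 1 at 12974000 gave a ratio of 9.76 (1.58 to 402), and 24 against 1 at 12976000 gave 10.2 (1.66 to 419). Neither was called over all windows; both were with a minimum of 20 tags (exact binomial test, adjusted p = 0.0313 and 0.0262), a setting that called 3 of 36 windows here and 19.4% in the genome. The second-highest lower bound in the interval was at 12962000, with 19 ChIP tags and 0 input tags. This window was 2.69-fold higher against the floor of 3, and its exact bound was 1.98 (exact binomial test, adjusted p = 0.177). Over all 128 windows of the interval, the block included, the median was 9 ChIP tags, against an autosomal mean of 5.47. The input was raised there too, with a median of 4 tags against an autosomal mean of 2.32.

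In the H19 with Igf2 interval the block covered the windows from 149841000 to 149850999. From 149841000 up, ChIP and input tags were 12 and 3, 12 and 0, 22 and 3, 20 and 3, and 32 and 4. From 149846000 up, they were 12 and 2, 12 and 2, 11 and 4, 13 and 3, and 22 and 4. The lowest ratio in the block was 1.17, at 149848000. The window with 32 ChIP tags, at 149845000, had a ratio of 3.39 (1.20 to 13.2; exact binomial test, adjusted p = 0.421), and 12 of its tags fell within 200 bp. That at 149842000, with 12 against 0, was 1.70-fold higher against the floor of 3, and its exact bound was 1.18 (exact binomial test, adjusted p = 0.522). ChIP tags exceeded the scaled input in all of these windows, but the limits of the block were drawn by that same excess. None of the windows was called singly. Some kb lower, at 149836000, there were 3 ChIP tags against 9 of the input (ratio 0.141, 0.0246 to 0.567; exact binomial test, adjusted p = 0.194). This window, the lowest tested ratio of the interval, was not called.

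Cdkn1c and Dlk1 with Meg3 had no 1 kb window with more than 19 ChIP tags. At Cdkn1c the highest lower bound was at 150649000, with 19 ChIP tags against 1 (ratio 8.06, 1.28 to 335; exact binomial test, adjusted p = 0.421). The next, at 150624000, had 12 against 1 and an interval that includes 1 (5.09, 0.753 to 218). In Dlk1 with Meg3 the 2 highest bounds were at 110687000, with 13 against 1 (5.52, 0.829 to 234), and at 110681000, with 12 against 1 (5.09, 0.753 to 218). A 1 kb window with 0 input tags needed 27 ChIP tags to be called and one with 3 needed 44, a ratio of 6.22. In these intervals the median window held 3 or 4 input tags, so enrichment below about that size could not have been called in most of them.

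**Figure D3:**
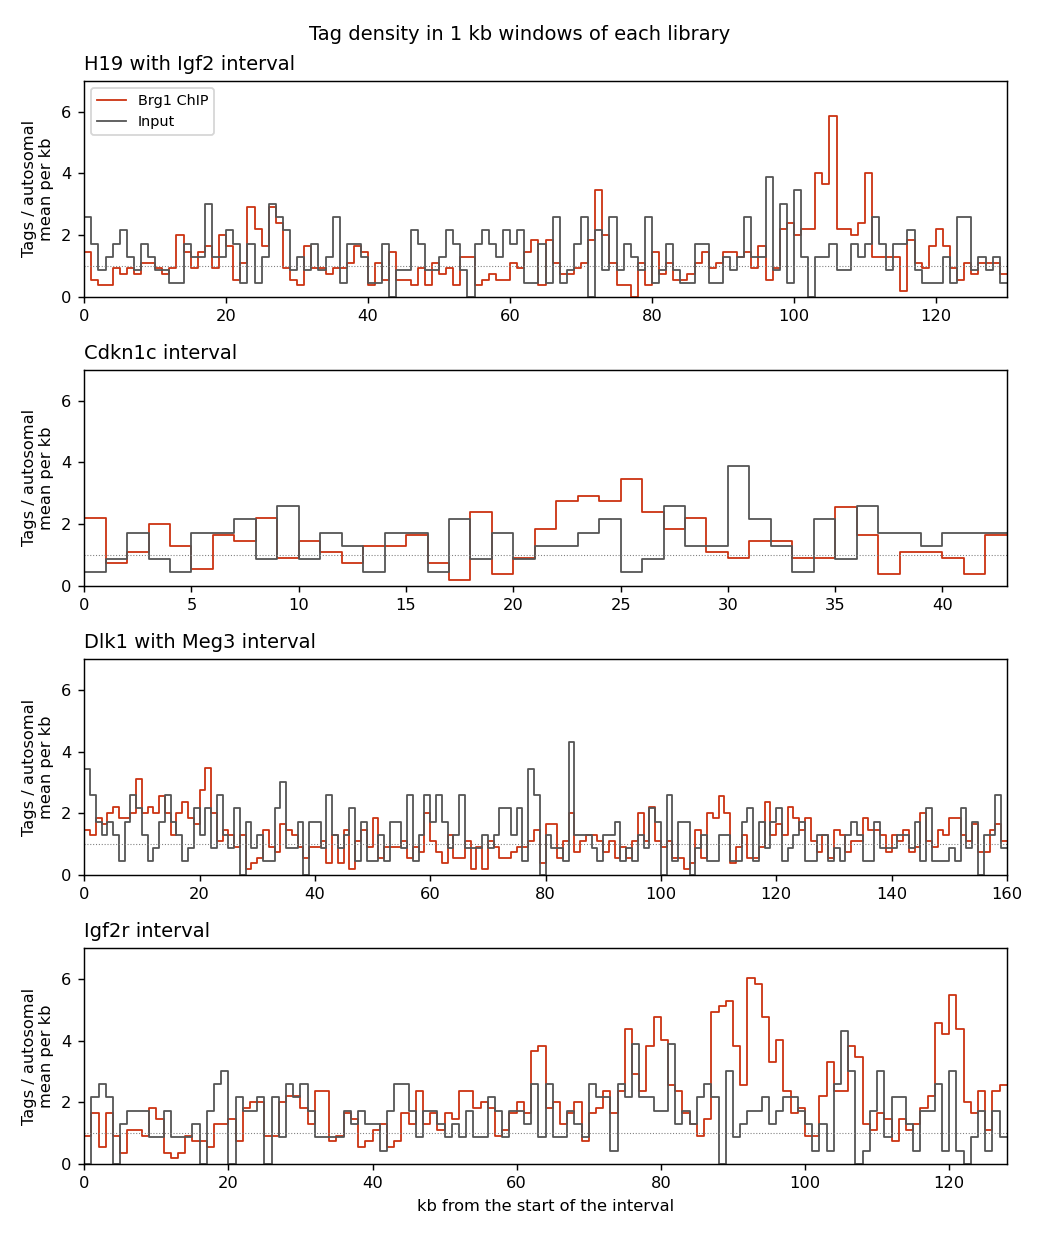
Tags of the ChIP (red) and the input (grey) library in 1 kb windows, divided by the autosomal mean per kb of that library, against kb from the start of each interval. ChIP density reaches 5.85 times the mean in H19 with Igf2 and 6.03 times in Igf2r and stays below 4 in the other 2 intervals.

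The surroundings of the intervals were uneven. Igf2r stood above its flanks: the 128 kb on each side together had 1468 ChIP against 713 input tags (ratio 0.874, 0.798 to 0.957), and the interval was at 1.47 times that (exact conditional interval 1.28 to 1.70). With flanks of 50 kb or 500 kb the factor was 1.27 in each case. The stretches of 100 kb next to Igf2r were at 0.844 (0.723 to 0.986) below and 0.906 (0.791 to 1.04) above. A stretch at 300 to 400 kb below the interval was higher than the interval itself, at 1.45 (1.27 to 1.66).

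The 2 sides of H19 with Igf2 differed, but the interval did not step down from one to the other. Its part below the midpoint was at 0.769 and its part above at 1.09. The 100 kb below the interval had a ratio of 1.33 (1.18 to 1.51), from 1138 ChIP and 362 input tags, and the 100 kb above it had 0.747 (0.631 to 0.887), from 382 and 217. Against flanks of its own width the interval was at 0.853 times (0.737 to 0.987), but with flanks of 50 kb it was at 1.09 times, so the direction depended on the width. Dlk1 with Meg3 was at 0.910 times its flanks (0.793 to 1.05), at 0.758 times with flanks of 50 kb and at 1.06 times with 500 kb. Ratios there fell to 0.695 (0.572 to 0.845) at 100 to 200 kb below the interval and reached 1.21 (1.05 to 1.41) in the 100 kb above. Cdkn1c did not differ from its flanks beyond counting error, at 1.12 times (0.875 to 1.43), and at 0.967 times with flanks of 500 kb. Its nearest 100 kb stretches were at 0.924 (0.807 to 1.06) and 0.998 (0.882 to 1.13).

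**Figure D4:**
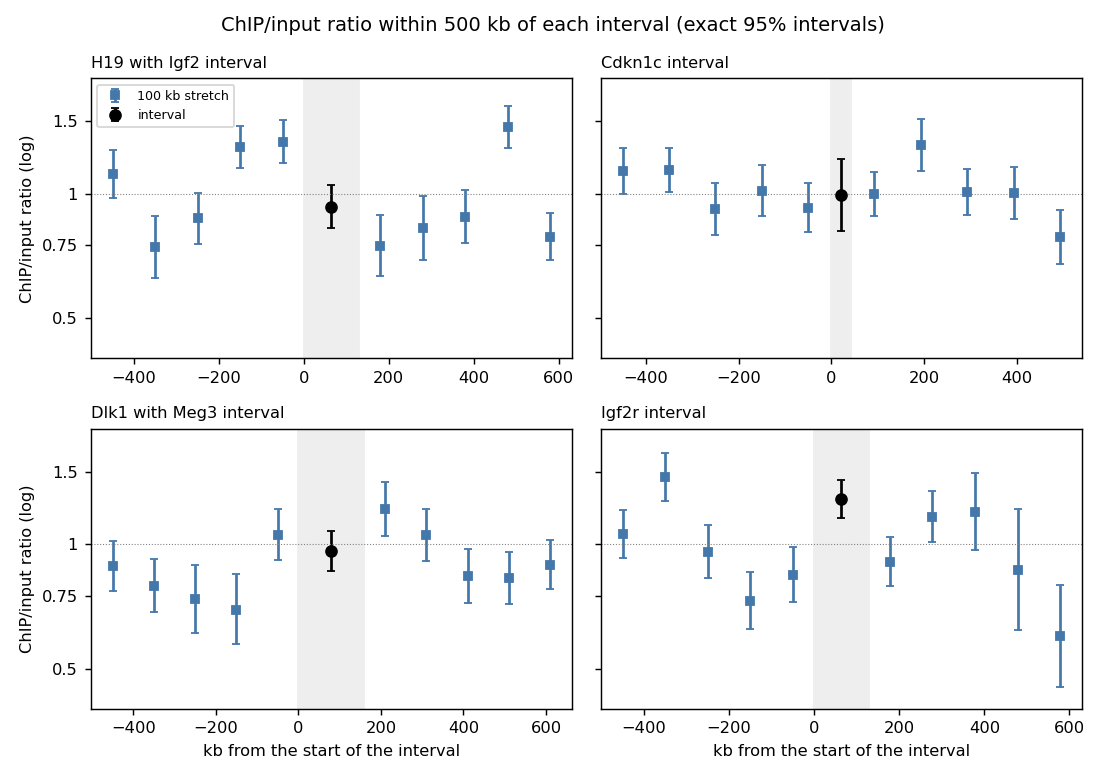
ChIP/input ratio (log axis) of each interval (black, grey band) and of the 5 stretches of 100 kb on each side (blue), with exact 95% intervals, against kb from the start of the interval. Igf2r, at 1.29, lies above both adjoining stretches, while H19 with Igf2, at 0.929, lies between 1.33 on its lower and 0.747 on its upper side.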

How the data were processed

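The libraries were made after Helicos guidelines, per the labels' protocols, and Bowtie and mm9 are named in the submitters' processing notes without version or settings. The deposited values are counts of tags at each chromosome, strand and position, with no normalization by the authors recorded; the filter on repeated tags is not stated in the sources used here. Positions follow the files, whose counting base (0 or 1) is unknown. The ChIP library held 13581267 tags (13215004 on autosomes) and the input 5778620 (5608004), or 5.47 and 2.32 per kb of autosome after the first tag of each chromosome, so 10 kb windows held 54.7 and 23.2 on average.

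Tags were moved 75 bp along their strand and counted in the intervals and in windows of 1 kb and 10 kb on a genome-wide grid. Windows count for an interval only when wholly inside it. Windows with at least 10 tags in both libraries together were tested two-sided by the exact binomial test, the smaller tail doubled, at the autosomal scale, and p was adjusted over all of them. Ratios have exact Clopper-Pearson 95% intervals, and comparisons of 2 regions the exact conditional interval of the odds ratio, with no p. A floor of 3 tags stands in for an input of 0. The flanks are as wide as the interval on each side.

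Named windows are, in each interval, every called window, the 2 tested 1 kb windows with the highest lower bound, and the 10 kb windows with the highest lower and the lowest upper bound; others shown were picked after their values were seen. Named windows were chosen on their own counts, so their ratios are descriptions. The members, intervals and tests were chosen with earlier results of these data known. The window test was tested on simulated data. Alternatives were other scalings, removal of repeated tags, unmoved tags, other minimums, ratios, grids and flanks, a floor on the input and another two-sided p. An annotation of mm9 was not used here, so windows are not assigned to promoters or exons. Analyses used Python 3.11.15, numpy 2.4.6, scipy 1.17.1, pandas 2.3.3 and matplotlib 3.10.9.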

Additional observations from a re-analysis of the deposited data

How the results depend on the processing

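The ratios of the 4 intervals stayed inside their 95% intervals under all 6 alternatives, and those of the 6 pairs under all 3. Background scaling lowered the scale to 0.900 of its value, which raises every ratio by 0.15 on the log2 scale. Flank comparisons moved with the width of the flanks: with 50 kb H19 with Igf2 turned to 1.09, Dlk1 with Meg3 was at 0.758 and Igf2r at 1.27, and with 500 kb Dlk1 with Meg3 was at 1.06 and Igf2r at 1.27. The single 1 kb call became 0 with 1 tag per strand within 5 bp, with unmoved tags, with no minimum, with the grid moved and with the input kept from falling under its 10 kb mean, and 3 of 36 with a minimum of 20 tags, against 19.4% in the genome; fewer or more windows tested enter the adjustment in the settings of the minimum, and the other causes were not tested. The 3 calls at 10 kb became 1 of 43 with the grid moved (3.98% in the genome). Summing likelihoods for the two-sided p, chosen after the data were seen, gave 2 of 44 lower 10 kb windows (1.48% in the genome) where the doubled tail gave 0, at 149790000 on chromosome 7 (exact binomial test, adjusted p = 0.0430) and 110730000 on chromosome 12 (exact binomial test, adjusted p = 0.0376). The splits at the midpoint moved little, between 1.56 and 1.60 for Igf2r. Of 74 values for intervals, pairs, flanks and splits, 7 crossed 1: the 3 with background scaling given beside the ratios, Cdkn1c with own-chromosome scaling (1.01), and with other flanks H19 with Igf2, Dlk1 with Meg3 and Cdkn1c (0.967). Of these only H19 with Igf2 against its flanks had a 95% interval that excluded 1 to begin with. No paired analysis was possible because there is only 1 library on each side. At 2.32 input tags per kb, depth limits what 1 kb windows can show.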

Other observations

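The ChIP tags of the Igf2r interval were unevenly divided between strands: 777 of 1411, or 55.1% (Clopper-Pearson 95% interval 52.4 to 57.7), lay on the plus strand, against 49.9% of the whole library. Its input tags were at 49.5% (44.8 to 54.1). In the other intervals the ChIP shares were 49.6% for H19 with Igf2, 49.3% for Cdkn1c and 49.0% for Dlk1 with Meg3, with intervals that include the share of the library. Within the called window at 12940000, 126 of 223 ChIP tags were plus-strand tags, and in that at 12970000 there were 85 of 164. The strand shares were 8 values looked at together and were not adjusted for that. Repeated tags were few: 11 of 1400 ChIP positions in the Igf2r interval, 6 of 894 in H19 with Igf2, 6 of 1074 in Dlk1 with Meg3 and 3 of 340 in Cdkn1c held 2 tags, and 0 input positions did.

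Every 1 kb window of the 4 intervals held at least 1 tag in the 2 libraries together, and 18 of 461 had no input tag: 8 in Igf2r, 6 in Dlk1 with Meg3, 4 in H19 with Igf2 and 0 in Cdkn1c.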
